A study of Homo sapiens with 4 samples.

Results

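Metallothioneins and zinc transporters were followed as a set of 10 genes, of 18417 genes that had a probe set annotated with a single gene symbol. The set was fixed by name and holds 6 metallothioneins (MT1E, MT1F, MT1G, MT1M, MT1X and MT2A) and 4 transporters (SLC30A1, SLC30A10, SLC39A4 and SLC39A5). Where a gene had several probe sets, the one with the highest mean stood for it. All 10 were on the array. The mean of 9 lay at or above a floor, the 40th percentile of probe set means (a log2 intensity of 4.84), and MT1M lay under it at 3.95.

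RNA came from Caco-2 cells, an established human line from a colorectal adenocarcinoma whose confluent cells come to resemble absorptive enterocytes. The cells were grown in regular 6-well plates or on collagen-coated Transwell inserts, porous membranes with separate apical and basolateral compartments. They received vehicle or 2 mM sodium cholate, a bile acid, for 3 h, given apically on the inserts. The 4 conditions were therefore vehicle on the plate, cholate on the plate, vehicle on Transwell and cholate on Transwell, with 1 array each. Every array held RNA pooled from 3 samples of 1 cell line, so no value below has a replicate check. The sample labels give 21 days of differentiation throughout, while the growth protocol gives 14 days for plates and 14 to 21 for inserts. The cholate solution held no calcium. The labels do not say whether the vehicle was the same solution.

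Metallothioneins are small cytosolic proteins rich in cysteine that hold zinc and copper. Their genes are switched on when free zinc activates the transcription factor MTF1, which binds short metal response elements in their promoters. In enterocytes, ZIP proteins (the SLC39A genes) bring zinc into the cytosol and ZnT proteins (the SLC30A genes) move it out of the cytosol. ZIP4 takes zinc up from the gut lumen, and ZnT1 passes it to the blood side and is itself a classical target of MTF1.

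The promoters of the 3 members known as MTF1 targets with an entry in the RefSeq table are shown because they carry the element that links metallothioneins to zinc. Each run is the 250 bases before the annotated start (GRCh38.p14), read 5′ to 3′ on the gene's strand. Capitals mark a metal response element spelled TGCACNC or TGCGCNC, searched on both strands. The spellings differ at 1 letter, so a stretch cannot match both on the same strand. MT1X lies at chr16:56682220-56682469 (plus strand), MT2A at chr16:56608334-56608583 (plus strand) and SLC30A1 at chr1:211579162-211579411 (minus strand).
MT1X: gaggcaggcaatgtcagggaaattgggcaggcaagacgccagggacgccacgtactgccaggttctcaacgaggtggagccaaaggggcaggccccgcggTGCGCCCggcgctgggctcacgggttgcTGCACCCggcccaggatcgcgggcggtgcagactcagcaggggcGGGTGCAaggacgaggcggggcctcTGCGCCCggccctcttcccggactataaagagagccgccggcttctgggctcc
MT2A: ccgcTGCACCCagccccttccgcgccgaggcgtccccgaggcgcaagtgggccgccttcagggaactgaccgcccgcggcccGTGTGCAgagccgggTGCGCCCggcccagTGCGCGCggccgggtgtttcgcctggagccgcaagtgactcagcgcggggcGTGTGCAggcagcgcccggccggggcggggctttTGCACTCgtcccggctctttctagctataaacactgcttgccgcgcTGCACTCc
SLC30A1: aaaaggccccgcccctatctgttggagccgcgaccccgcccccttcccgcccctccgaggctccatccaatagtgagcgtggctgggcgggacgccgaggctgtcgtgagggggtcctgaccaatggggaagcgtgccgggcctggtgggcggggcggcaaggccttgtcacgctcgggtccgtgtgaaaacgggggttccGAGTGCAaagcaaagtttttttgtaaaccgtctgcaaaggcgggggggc

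The MT1X window held 4 matches, the MT2A window 7 and the SLC30A1 window 1. Among 35116 promoter windows of the same length, of which some belong to the same gene, 24.8% held at least 1 match, 0.37% at least 4 and 0.0313% at least 7. The matches nearest the start began 53 bases before it in MT1X, 8 in MT2A and 49 in SLC30A1. Both windows of SLC30A10 and both of SLC39A5 held 0 matches, as did 75.2% of all windows. MT1E, MT1F, MT1G, MT1M and SLC39A4 were not matched in the promoter table. In the rest of the family, MT1H had 8 matches, MT1B 3 and MT4 3. A match gives only the letters in this window and does not show that a factor binds there.

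**Figure D1:**
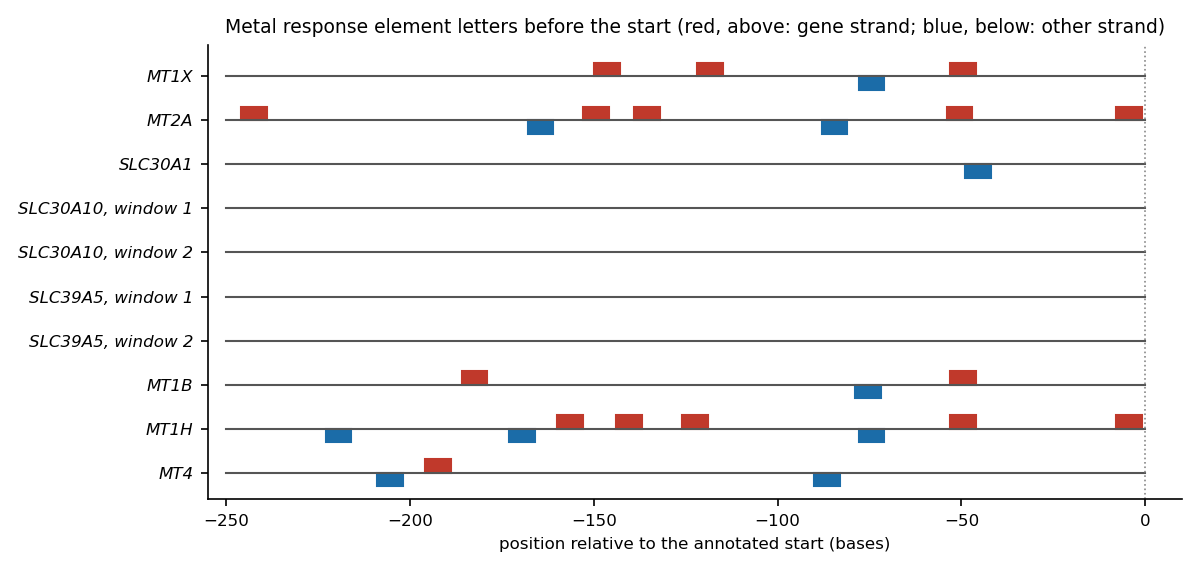
Metal response element letters in the 250 bases before each annotated start, by distance from the start in bases (x axis), for the members and family genes found in the promoter table. Red blocks above a line are matches on the gene's strand and blue blocks below it are on the other strand; MT2A has 7, MT1X 4, SLC30A1 1, and SLC30A10 and SLC39A5 have 0.

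Most metallothionein readings were nearly level across the 4 arrays. MT2A, the most widely expressed human metallothionein, read 9.22 in plate vehicle, 9.27 in plate cholate, 9.21 in Transwell vehicle and 9.22 in Transwell cholate (log2 intensity). Its range of 0.06 on this probe set was the smallest of the 10 genes. MT2A had 2 further probe sets. They read 8.57, 8.63, 8.47 and 8.52 for the first and 8.62, 8.63, 8.58 and 8.58 for the second, in the same order of arrays. All 3 probe sets gave cholate differences between 0.00 and 0.06 log2, so MT2A read flat with cholate whichever was taken. Transwell minus plate depended more on the choice. It was -0.11 in vehicle and -0.10 in cholate for the first further probe set, against -0.01 and -0.05 for the chosen one. The 3 probe sets share annotated transcripts, so they are not independent readings.

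MT1F, an isoform of the same gene cluster on chromosome 16, read 8.64 and 8.53 in vehicle and cholate on the plate and 8.44 and 8.46 on Transwell. MT1G read 6.49 and 6.43 on the plate and 6.37 and 6.37 on Transwell. Both genes read lower on Transwell than on the plate in either treatment, by 0.06 to 0.20 log2. MT1E read 5.63, 5.39, 5.51 and 5.58, lowest in plate cholate. MT1M read 3.93, 3.98, 3.91 and 3.97, under the floor on every array, so a difference in this gene could hardly show.

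MT1X was the exception among the metallothioneins. It read 7.15 in plate vehicle, 7.80 in plate cholate, 7.64 in Transwell vehicle and 7.50 in Transwell cholate. Plate vehicle was the low array and plate cholate the high one, with both Transwell arrays between them. Cholate minus vehicle was 0.65 log2 on the plate (1.57-fold) and -0.14 on Transwell (0.907-fold). With each array centred on its median the plate difference was 0.58, just under 1.5-fold. Transwell minus plate was 0.50 in vehicle and -0.30 in cholate. With 1 array per condition, a plate vehicle pool that read low by itself cannot be told apart from a response to cholate on the plate. In pooled RNA, fewer cells with a transcript and less of it per cell cannot be told apart either.

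**Figure D2:**
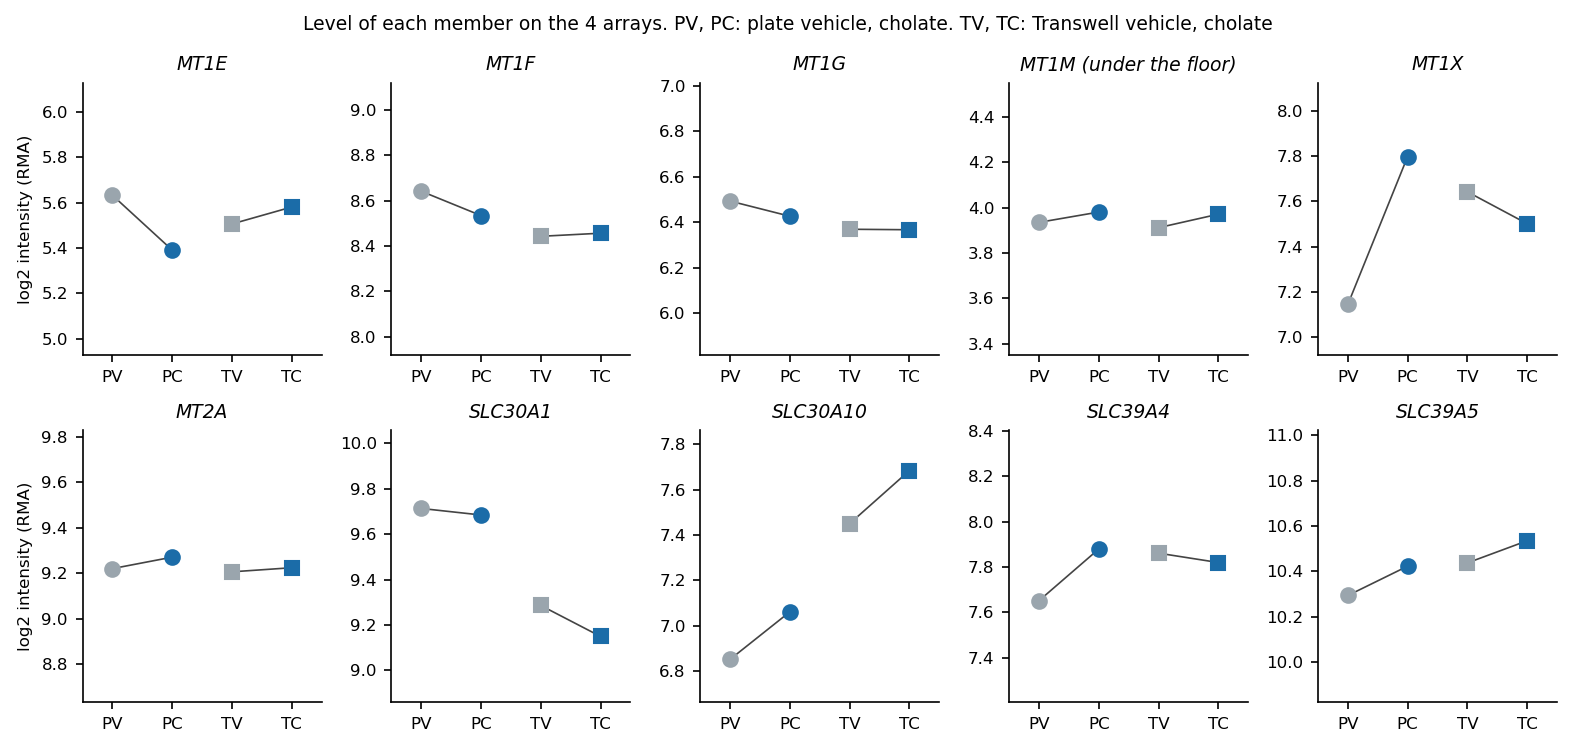
Log2 intensity (y axis) of the 10 genes on the 4 arrays (x axis), 1 point per array, with grey for vehicle, blue for cholate, circles for plates and squares for Transwell; every panel spans the same range. MT1X reads 7.15 in plate vehicle and 7.50 to 7.80 elsewhere, SLC30A10 is higher and SLC30A1 lower on both Transwell arrays, and MT2A is level.

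Both ZnT members differed more between plate and Transwell arrays than by cholate. The inserts also differed from plates in their collagen coating and, by the growth protocol, possibly in days in culture. With 1 pool per condition, these cannot be told apart from the support itself or from a pool that differed by itself. SLC30A10, a ZnT family member that acts mainly as a manganese exporter, read 6.85 in plate vehicle, 7.06 in plate cholate, 7.45 in Transwell vehicle and 7.68 in Transwell cholate. Both Transwell arrays lay above both plate arrays. In vehicle the Transwell array was higher by 0.60 log2 (1.51-fold). In cholate it was higher by 0.62 (1.54-fold), and these differences share no array. Cholate minus vehicle was 0.21 on the plate and 0.23 on Transwell. The range of 0.83 over the arrays was the largest of the 10 genes.

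SLC30A1, which encodes the exporter ZnT1, went the other way with support. It read 9.71 in plate vehicle, 9.68 in plate cholate, 9.29 in Transwell vehicle and 9.15 in Transwell cholate. Both Transwell arrays lay below both plate arrays, at -0.43 log2 (0.743-fold) for vehicle and -0.54 (0.69-fold) for cholate. The cholate differences were -0.03 and -0.14.

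SLC39A4, the apical importer ZIP4, read 7.65 and 7.88 in vehicle and cholate on the plate and 7.86 and 7.82 on Transwell. As in MT1X, plate vehicle was the lowest array and plate cholate the highest, and the cholate differences were 0.23 log2 (plate) and -0.04 (Transwell). SLC39A5, the basolateral importer ZIP5, read 10.29 and 10.42 on the plate and 10.44 and 10.53 on Transwell. Its 4 differences lay between 0.10 and 0.14 log2, all above 0.

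Counted at 1.5-fold among the 9 genes above the floor, 1 was higher and 0 lower with cholate on the plate, and the higher one was MT1X. Of 12900 genes above the floor, 1.49% were higher and 2.35% lower in that comparison. On Transwell 0 members were higher or lower at 1.5-fold, against 0.357% of genes higher and 0.736% lower. Transwell against plate gave 1 higher member in vehicle (1.93% of genes) and 1 in cholate (4.02%), SLC30A10 each time. In vehicle its difference was 0.58 after quantile normalization and 0.57 after cyclic loess, just under 1.5-fold. No member was 1.5-fold lower in either support comparison (3.16% of genes in vehicle and 3.75% in cholate). The exception was SLC30A1 in cholate after cyclic loess (-0.59), just past 1.5-fold. With so few genes, counts of 0 or 1 are near what these shares give.

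The medians over all 10 genes stayed close to those of all genes above the floor. For cholate they were 0.05 log2 on the plate and 0.02 on Transwell, against -0.03 and -0.01 for all genes. For Transwell minus plate they were -0.02 in vehicle and -0.05 in cholate, against 0.02 and 0.02. The central 90% of genes spanned -0.44 to 0.34 for cholate on the plate and -0.27 to 0.25 on Transwell. It spanned -0.48 to 0.43 for support in vehicle and -0.52 to 0.55 in cholate. MT1X on the plate and in vehicle by support, SLC30A10 by support in both treatments, and SLC30A1 by support in cholate were the member values outside these spans.

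**Figure D3:**
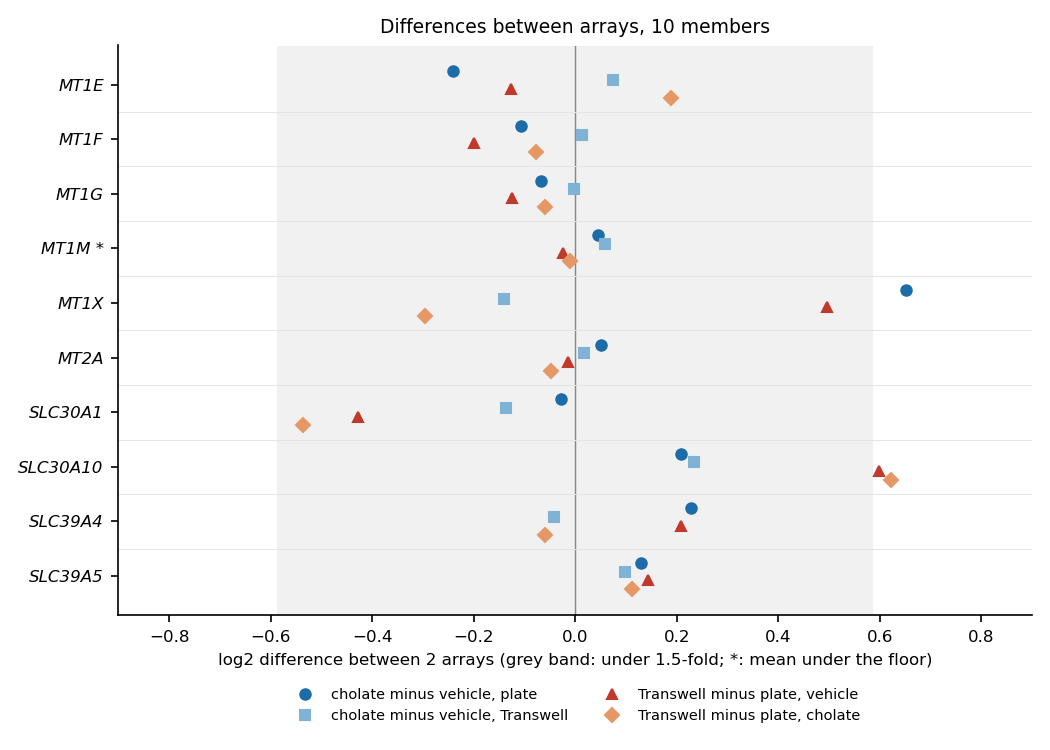
Log2 differences between pairs of arrays (x axis) for the 10 genes (rows), with cholate minus vehicle in blue tones and Transwell minus plate in red tones; the grey band holds differences under 1.5-fold and the asterisk marks a mean under the floor. MT1X on the plate (0.65) and SLC30A10 by support (0.60 and 0.62) lie outside the band.

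The difference between the responses to cholate, Transwell minus plate, was -0.79 log2 for MT1X. It was at least 1.5-fold in 3.05% of genes above the floor. For the other 9 members this difference lay between -0.27 (SLC39A4) and 0.32 (MT1E). The contrast uses all 4 arrays and has no test.

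Across the 4 arrays, an additive limma model of support and treatment was fitted to the 19978 probe sets above the floor. It leaves a single residual degree of freedom, which comes from how far the responses differ, so its errors do not measure the spread between cultures. For support, SLC30A10 had a mean difference of 0.61 log2 with a limma SE of 0.09 and an adjusted p of 0.11. SLC30A1 had -0.48 with an SE of 0.09 and an adjusted limma p of 0.126. Neither passed 0.05. Over all probe sets 0 (0%) passed in either direction, and 4519 (22.6%) had an unadjusted p under 0.05. With the floor at the 60th percentile, 13319 probe sets were tested and 807 (6.06%) passed, among them SLC30A10 (adjusted limma p of 0.0338) and SLC30A1 (0.0482).

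For cholate 0 members and 0 probe sets (0%) passed, with 2162 probe sets at an unadjusted limma p under 0.05 and none of the 9 tested members among them. MT1X had a mean difference of 0.26 log2 with an SE of 0.22 and an adjusted limma p of 0.695. SLC30A10 had 0.22 with an SE of 0.09 and an adjusted limma p of 0.479, the smallest among the members.

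The wider metallothionein family gave readings for 14 of 18 listed genes and pseudogenes, 13 of them above the floor. MT1X was the single gene at 1.5-fold, and only for cholate on the plate. The family medians were 0.01 and 0.04 log2 for cholate on the plate and on Transwell. They were -0.02 and -0.03 for support in vehicle and cholate. Adjusted limma p values in the family were at least 0.616 for cholate and 0.186 for support.

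Among the 14 family genes, plate vehicle was the lowest array in 4 (28.6%), against 22.9% of all genes above the floor. Plate cholate was the lowest in 4 as well (28.6%), against 34.5% of all genes. With 14 genes, these counts are near those shares. MT1DP, a transcribed pseudogene, read 6.53 in plate vehicle and 6.72, 6.78 and 6.67 in plate cholate, Transwell vehicle and Transwell cholate. MT3, the isoform best known from brain, read 5.94 and then 6.08, 6.19 and 6.14. Like MT1X, both were lowest in plate vehicle, with smaller cholate differences on the plate (0.19 and 0.14 log2). MT1JP was also lowest there, with a cholate difference on the plate of only 0.02.

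Plate cholate was instead the lowest array for MT1E, MT1HL1, MT1B and MT4. MT1HL1, a copy outside the cluster, read 5.84, 5.62, 5.68 and 5.83. MT1B read 5.22, 5.05, 5.17 and 5.23. MT4, an isoform of stratified epithelia, read 4.96, 4.80, 4.98 and 5.10, the plate cholate value under the floor. Their cholate differences on the plate lay between -0.24 (MT1E) and -0.15 (MT4) log2, and those on Transwell between 0.05 (MT1B) and 0.15 (MT1HL1).

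The remaining family genes kept to small differences in cholate. MT1H read 5.42, 5.44, 5.42 and 5.38. MT1IP, a transcribed pseudogene, read 5.22, 5.37, 4.95 and 5.06, lower on Transwell by -0.27 log2 in vehicle and -0.31 in cholate. MT1JP, another, read 5.05, 5.07, 5.13 and 5.26.

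**Figure D4:**
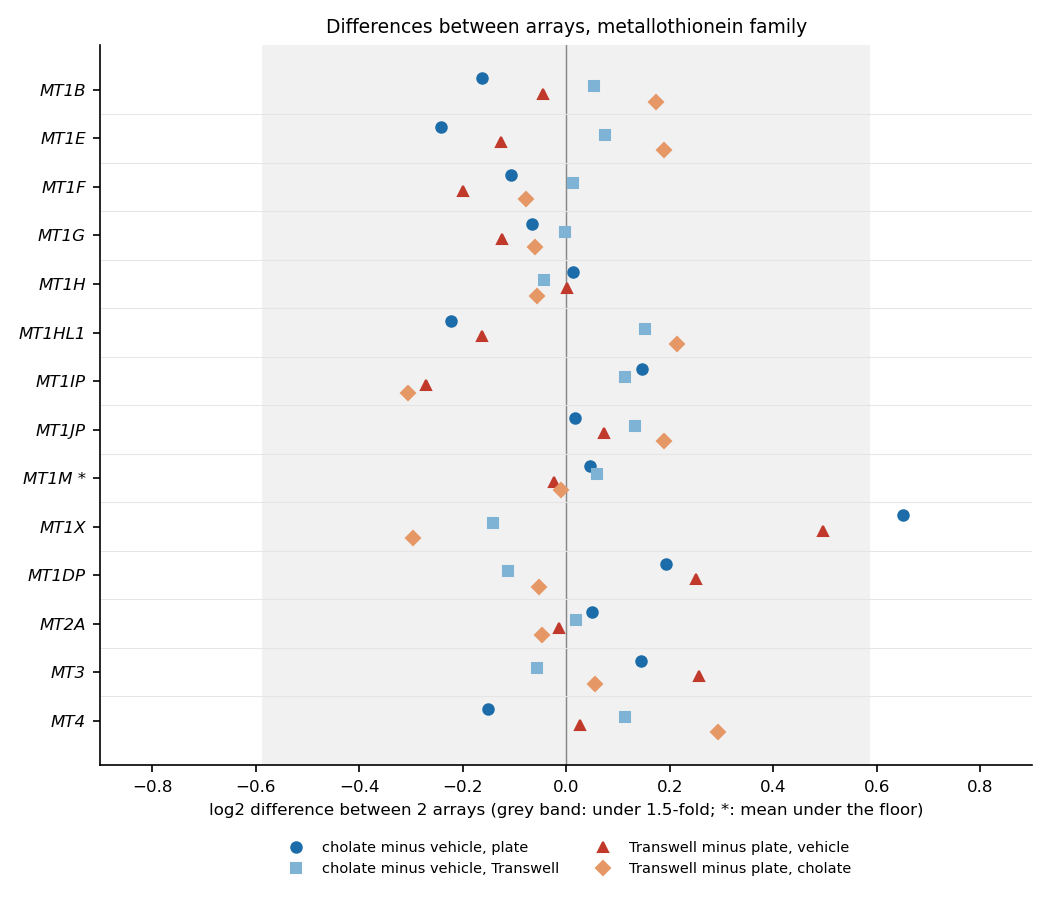
Log2 differences between pairs of arrays (x axis) for 14 metallothionein genes and pseudogenes (rows), with symbols as in the legend and the grey band for differences under 1.5-fold. MT1X on the plate (0.65) is the single point outside the band, and MT1E, MT1B, MT1HL1 and MT4 lie left of 0 for cholate on the plate and right of 0 on Transwell.

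Metallothionein transcripts are so alike that a probe for one isoform can bind RNA of another. The annotation gave 16 probe sets with a single family symbol, and 1 further probe set carried a family symbol beside another gene and was left out. Among 120 pairs of these 16, the 3 pairs that shared an annotated transcript were all within MT2A, and 0 pairs of different genes shared one. Keeping only probe sets with a single symbol would mostly remove such pairs beforehand. This 0 therefore does not tell whether a probe set binds RNA of other isoforms. Probe sequences were not used here, so how much each reading holds of other isoforms was not tested. A difference in 1 isoform, such as MT1X, is thus the difference of its probe set.

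Of the other transporter genes, 20 ZnT and ZIP genes were measured and 18 lay above the floor. On the plate 15 of these 20 were below 0 with cholate and 5 above, with a median of -0.11 log2. On Transwell the split was 10 and 10, with a median of 0.00. Over all genes above the floor, 44.9% were above 0 on the plate and 46.4% on Transwell.

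SLC39A8, the importer ZIP8 that carries zinc and manganese, had the largest cholate difference in these families. It read 7.54 in plate vehicle, 6.25 in plate cholate, 6.99 in Transwell vehicle and 6.59 in Transwell cholate. Cholate arrays were lower on both supports, with differences of -1.29 log2 (plate) and -0.39 (Transwell). Its adjusted limma p for cholate was 0.441. SLC39A2, which encodes ZIP2, read 5.30, 4.46, 5.07 and 4.89 and stood at -0.84 and -0.18 for cholate. Its plate cholate value lay under the floor.

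SLC39A10 and SLC39A6, which encode the related importers ZIP10 and ZIP6, read higher on Transwell than on the plate, more so in cholate. SLC39A10 read 9.21 and 8.84 on the plate and 9.75 and 9.74 on Transwell, a support difference of 0.54 log2 in vehicle and 0.89 in cholate. SLC39A6 read 6.91 and 6.33 on the plate and 7.01 and 6.99 on Transwell, with support differences of 0.10 and 0.66. In both genes plate cholate was the low array. SLC39A11, which encodes ZIP11, read 7.93 in plate vehicle and 7.32 in Transwell vehicle, a difference of -0.61, and -0.15 in cholate.

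**Figure D5:**
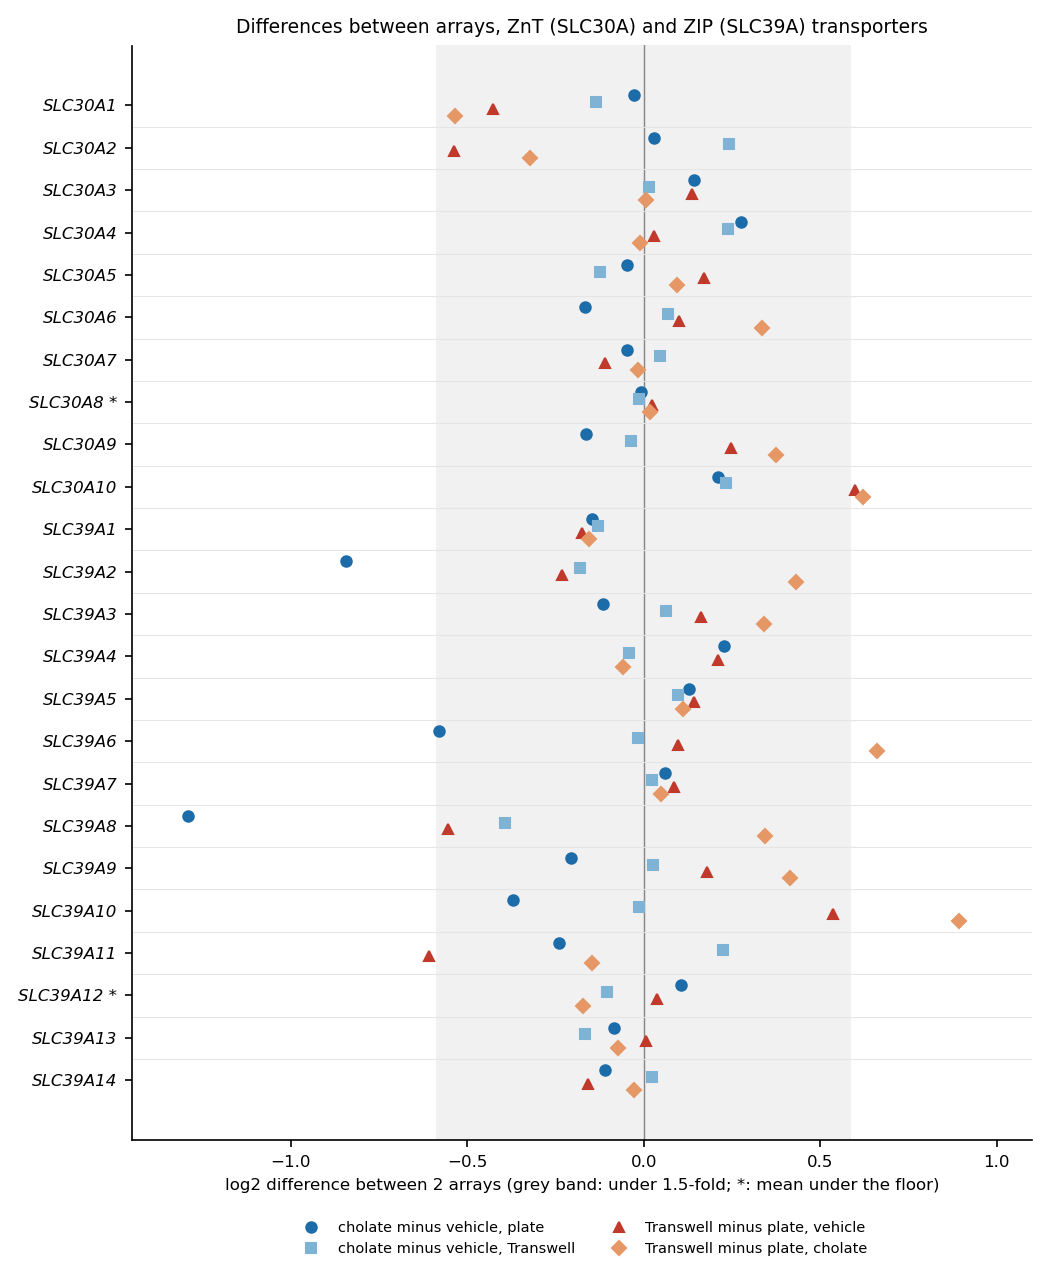
Log2 differences between pairs of arrays (x axis) for 24 ZnT and ZIP genes (rows), with symbols as in the legend, the grey band for differences under 1.5-fold and asterisks for means under the floor. SLC39A8 (-1.29) and SLC39A2 (-0.84) lie lowest for cholate on the plate, and SLC39A10 (0.89) lies highest for Transwell minus plate in cholate.

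Among the ZnT genes other than the members, 0 reached 1.5-fold. SLC30A2, a vesicular zinc transporter, read 6.44 and 6.47 on the plate and 5.90 and 6.14 on Transwell. It was lower on Transwell, as SLC30A1 was, by -0.54 log2 in vehicle and -0.32 in cholate. The secretory pathway transporters SLC30A5, SLC30A6 and SLC30A7 had cholate differences between -0.17 and 0.07.

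MTF1, the zinc sensor itself, read 6.87 and 7.22 on the plate and 7.03 and 7.14 on Transwell. Its cholate differences were 0.36 and 0.11 log2, both above 0 and under 1.5-fold. GPR39, a zinc-sensing receptor, read 8.70, 8.66, 8.28 and 8.08, lower on both Transwell arrays by -0.42 and -0.58. None of 11 copper handling genes reached 1.5-fold in any comparison. Of these, the copper exporter gene ATP7A was higher on Transwell by 0.58 and 0.51, and its relative ATP7B stood at -0.31 and -0.37.

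Genes that zinc or cadmium can induce beside metallothioneins did not share a direction. Of 6 measured, 2 were at least 1.5-fold higher with cholate on the plate, against 1.49% of genes above the floor. They were HSPA6 and DNAJB1, a heat shock protein and a co-chaperone (0.72 and 0.89 log2). In cholate both were lower on Transwell than on the plate (-0.74 and -0.66). HSPA6 read under the floor in Transwell vehicle (4.52). HMOX1, heme oxygenase, was lower with cholate on both supports (-0.69 and -0.79), while MT2A stood at 0.05 and 0.02. The rest of the list was also lower with cholate on the plate: GCLM by -0.52, TXNRD1 by -0.42 and SLC7A11 by -0.21. On Transwell these stood at -0.06, -0.12 and 0.16. Glucocorticoid targets were listed because MT2A carries a glucocorticoid response element. Of 4 measured, PER1, a clock gene, reached 1.5-fold, for Transwell minus plate in cholate (-0.62). Of 4 alkaline phosphatase genes, whose enzymes receive zinc in the secretory pathway, 0 did, with ALPP at -0.44 and -0.54 for cholate.

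The closest patterns among 12891 other genes above the floor were found by Euclidean distance between readings centred on each gene's mean, over the 4 arrays. For SLC30A10 they were H3C12 (distance 0.05), BCL11B (0.07), PTGER2 (0.08), VASH2 (0.10) and ZBTB18 (0.11). H3C12 was higher on Transwell by 0.60 and 0.57 log2. For the mean of the 6 metallothioneins they were PNP, C9orf40, SON, RPL26 and ZBTB2, at distances of 0.01 or 0.02. That mean varied by only 0.06 log2 over the arrays, but it averages members of opposite sign and includes MT1M, under the floor. With cholate on the plate MT1X stood at 0.65, and MT2A and MT1M at 0.05 each. MT1G stood at -0.07, MT1F at -0.11 and MT1E at -0.24. These near-flat patterns therefore do not describe MT1X or MT1E.

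All 9 measured enterocyte markers lay above the floor, among them villin (VIL1), CDX2 and sucrase-isomaltase (SI). Of 3 leukocyte markers 0 did, PTPRC included, and of 3 endothelial markers only PECAM1 did. Of 5 fibroblast markers 4 lay above it, with array medians of 5.17 to 5.30, and their median differences lay between -0.12 and 0.10 log2. Of 5 goblet and Paneth cell markers 2 did (SPDEF and LYZ).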

How the data were processed

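The deposited values are log2 intensities of probe sets. Per the submitters' processing notes the authors used RMA, a method that corrects background, normalizes between arrays and summarises probes. This hides a change shared by most transcripts and compresses differences near background. Its software and the genome build: not given in the sources used here. The median intensity per array ranged from 5.64 to 5.73. The number of arrays limits the precision.

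Of 33297 probe sets, 19460 had 1 gene symbol in the platform annotation, 1754 had several and 12083 had none listed. Differences are between 2 arrays and have no p-value. The additive test used limma 3.58.1 (lmFit, eBayes) in R 4.3.3, 2-sided, with Benjamini-Hochberg adjustment over all 19978 probe sets above the floor, and was tested on simulated data. The prior had 2.83 degrees of freedom. Promoter sequences are RefSeq's (GRCh38.p14). Alternatives were 3 scalings, 2 floors, a 2-fold threshold, the mean of all probe sets of a gene and a prior with an intensity trend.

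Members and lists were chosen with earlier results of these data known. All members are named, with every gene of the lists that reached 1.5-fold and the 5 nearest patterns. Others were named after their values were seen: the remaining family genes, SLC30A2, SLC30A5, SLC30A6, SLC30A7, MTF1, GPR39, ATP7A, ATP7B, ALPP, GCLM, TXNRD1 and SLC7A11.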

Additional observations from a re-analysis of the deposited data

Results flagged for a closer look

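MT1X stood out because its response to cholate had opposite signs on the supports while 1 of the values exceeded 1.5-fold. Opposite signs alone occurred in 4 of the 10 members and in 5058 of 12900 genes above the floor. The values for MT1X were 0.65 log2 (plate) and -0.14 (Transwell). With each array centred on its median the plate value was 0.58, just under 1.5-fold. Each of these values is a difference between 2 pooled arrays, and the difference between the plate and Transwell responses was not tested.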

How the results depend on the processing

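With each array centred on its median, 0 members reached 1.5-fold for cholate on the plate (MT1X at 0.58 log2). For Transwell minus plate in vehicle, 0 did after quantile normalization or cyclic loess (SLC30A10 at 0.58 and 0.57). In cholate, cyclic loess gave 2, adding SLC30A1 at -0.59, just past 1.5-fold. The shares of all genes given above are for the deposited values, not for these scalings. At 2-fold, 0 members were counted for cholate on the plate or for support in either treatment. For support, limma called 807 probe sets (6.06%) and 2 members with the floor at the 60th percentile. MT1E, MT1G and MT1M lay under that floor and were not tested there. With an intensity trend in the prior, limma called 293 probe sets (1.47%) and 0 members. For cholate, limma called 0 probe sets under all 6 alternatives, with 1708 to 2935 at an unadjusted p under 0.05. All 160 differences of single members over 3 scalings and the mean of probe sets moved by less than 0.09 log2, a typical limma SE. The member medians moved by less than that too, but the cholate medians were -0.02 and -0.03 after centring. Leaving out an array was not possible with 1 per condition. No paired analysis was possible because each condition has 1 array; the additive model compares treatments within each support.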
